A study of Mus musculus with 10 samples.

Results

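The 9 genes described here act in the control of apoptosis and were followed through the differentiation of C2C12 myoblasts. They encode the antiapoptotic Bcl2 proteins (Bcl2, Bcl2l1 and Mcl1), the BH3-only proteins Bcl2l11 and Bid, the effector Bak1, the initiator caspases Casp8 and Casp9, and the apoptosome scaffold Apaf1. They were taken by gene name from a table of 35275 genes, where 9 of 9 were found, and all 9 were among the 13085 genes that passed the filter on low counts and were tested. On day 6 of differentiation the antiapoptotic genes Bcl2, Bcl2l1 and Mcl1 were higher than before differentiation, and so were Bid and Casp9. Casp8, Apaf1, Bak1 and Bcl2l11 were lower. Of the 9 genes, 9 passed the test, where 79.8% of all genes tested did. A total of 5 were higher, where 40.1% of all genes tested were, and 4 were lower, where 39.7% were. The 5 libraries of day 6 did not overlap the 5 libraries before differentiation for 8 of the 9, and the same held for 69.1% of all genes tested. The median log2 fold change was 0.34 for the 9 genes and 0.01 for all genes tested. Since most genes changed in these libraries, the counts alone do not set the 9 genes apart. In absolute size, the log2 fold change of Casp8 exceeded that of 85.1% of all genes tested, and those of Apaf1, Bcl2, Bak1 and Bcl2l1 that of 78.5%, 66.4%, 57.0% and 49.6%. Bid, Bcl2l11, Casp9 and Mcl1 had smaller changes, in excess of 41.3%, 35.0%, 34.1% and 29.4% of genes. The summed counts behind these values were 1125 (Casp8) to 21188 (Mcl1) over the 5 libraries of day 6 and 1098 (Bcl2) to 17486 (Mcl1) over the 5 libraries before differentiation.

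In the intrinsic pathway of apoptosis, antiapoptotic Bcl2 proteins hold BH3-only proteins and the effectors Bak1 and Bax in check, and free effectors form pores in the outer mitochondrial membrane that release cytochrome c. Cytochrome c binds Apaf1, which assembles into the apoptosome and activates caspase-9. In the extrinsic pathway, death receptors activate caspase-8, which cleaves Bid, whose fragment carries the signal to mitochondria. Some myoblasts die when differentiation is induced, and caspase activity is also known to take part in myoblast differentiation itself.

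C2C12 is an established mouse myoblast line, and all libraries come from this line. The 5 libraries of day 6 were made from cells switched from growth medium with 10% fetal bovine serum to medium with 2% horse serum, and are labelled as differentiating. The 5 libraries before differentiation were made from cells taken from growth medium just before that switch. Separate cultures are not stated for libraries of the same condition, and the spread behind each p-value is that between libraries, which may be technical. Library totals were 15367909 to 20509280 counts on day 6 and 16288532 to 21622527 before differentiation. The level of a gene is its count per 1000000 of the scaled library total (CPM). Log2 fold changes are day 6 over before differentiation, and p-values were adjusted over all 13085 genes tested with edgeR's quasi-likelihood method. Within day 6, replicates 1 and 2 stood apart from replicates 3, 4 and 5, at 24.3 and 24.4 against -17.8, -18.7 and -12.2 on a first principal component that held 49.5% of the variance. Fits that leave out either of these sets follow a split seen in the same libraries. Their adjusted p-values leave out the spread between these sets.

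Muscle identity and growth arrest separated the conditions. Of 9 muscle marker names, 8 were in the table, of which 7 were higher on day 6 and 1, Myf5, was lower, with a summed level of 10690 to 15663 CPM on day 6 and 932 to 1024 CPM before differentiation. All 8 markers of dividing cells were lower, at a summed 169 to 245 CPM on day 6 against 2524 to 2652 CPM before differentiation. Leukocyte markers summed to 1.65 to 2.503 CPM on day 6 and 0.829 to 2.75 CPM before differentiation. Among them Cd3e was at 0, the myeloid marker Itgam had 66 counts on day 6 and 0 before differentiation, and Cd68 had 104 counts on day 6 and 173 before differentiation. Endothelial markers summed to at most 1.22 CPM and markers of neurons and glia to at most 1.68 CPM in any library, and adipocyte markers gave 0 counts on day 6 and 2 counts before differentiation. Epithelial markers summed to 2.56 to 4.80 CPM on day 6 and 0.323 to 1.13 CPM before differentiation. Most of the day 6 sum was Cdh1, with 291 counts on day 6 and 17 before differentiation (log2 fold change 4.11, edgeR adjusted p = 5.81e-09), and Epcam was at 0. The part of the change in dividing cells and muscle identity in the values below was not tested, and in bulk RNA fewer cells of a type cannot be told apart from less RNA per cell.

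Promoter sequences are shown for the 3 genes whose level changed most, Casp8, Apaf1 and Bcl2, because the contrast in base composition between them is large. Each run is the 250 bases before the transcription start in RefSeq on GRCm38.p6, the build also called mm10, written 5′ to 3′ on the gene's strand. Capitals mark the E-box CANNTG, the motif of MyoD and related factors, and the GC box GGGCGG, the motif of Sp1-type factors, each searched on both strands.
Casp8, chr1:58802252-58802501, plus strand: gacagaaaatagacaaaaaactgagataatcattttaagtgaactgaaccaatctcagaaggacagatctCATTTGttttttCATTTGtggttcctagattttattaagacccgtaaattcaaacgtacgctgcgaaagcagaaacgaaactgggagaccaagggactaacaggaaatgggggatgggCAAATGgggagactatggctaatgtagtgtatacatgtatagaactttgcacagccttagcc
Apaf1, chr10:91082744-91082993, minus strand: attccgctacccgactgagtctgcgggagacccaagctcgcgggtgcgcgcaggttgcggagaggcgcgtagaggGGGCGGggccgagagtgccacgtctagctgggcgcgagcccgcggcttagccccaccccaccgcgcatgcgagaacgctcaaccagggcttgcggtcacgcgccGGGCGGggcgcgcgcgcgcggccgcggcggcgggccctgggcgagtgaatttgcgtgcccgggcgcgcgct
Bcl2, chr1:106714291-106714540, minus strand: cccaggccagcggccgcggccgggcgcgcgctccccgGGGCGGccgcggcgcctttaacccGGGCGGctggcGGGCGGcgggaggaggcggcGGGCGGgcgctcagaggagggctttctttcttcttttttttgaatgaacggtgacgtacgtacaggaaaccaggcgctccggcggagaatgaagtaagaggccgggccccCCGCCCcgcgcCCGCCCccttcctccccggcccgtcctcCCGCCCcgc
The Casp8 window had 39.6% G and C, 5 CpG dinucleotides, 3 E-boxes and 0 GC boxes. It lies inside the gene model of the count table, which begins upstream of this RefSeq start. The Apaf1 window had 75.6% G and C, 42 CpG, 0 E-boxes and 2 GC boxes, and the Bcl2 window had 74.8% G and C, 36 CpG, 0 E-boxes and 7 GC boxes. Over 32851 RefSeq promoters of the same length, the medians were 52.4% G and C and 6 CpG, 66.2% held an E-box and 32.7% held a GC box. So the gene with the largest rise and a gene with a large fall share a CpG-rich, E-box-free window. The window of Casp8, the gene with the largest fall, was near the median in CpG, at 5 against 6, and lower in G and C. Among the other members, Bid had 3 GC boxes, Casp9 had 4 GC boxes and 1 E-box, Mcl1 had 1 of each, both starts of Bcl2l11 had GC boxes (3 and 2), the 3 starts of Bcl2l1 had 1 E-box each and Bak1 had neither motif. The E-box form CAGCTG, held by 13.0% of promoters, and the E2F motifs TTTGGCGC and TTTCCCGC, held by 0.417% and 0.895%, were found in none of the 12 windows of the members. A match is a description of the letters and not a binding site.

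The 3 antiapoptotic genes were all higher on day 6, by 1.97-fold for Bcl2, 1.55-fold for Bcl2l1 and 1.27-fold for Mcl1. Bcl2 is the founding member of the family and lies on the minus strand of chromosome 1 from 106538178 to 106714274 (mm10). It stood at 25.5, 25.1, 23.1, 23.8 and 20.5 CPM in replicates 1 to 5 of day 6, against 13.2, 14.7, 11.3, 11.3 and 9.36 CPM in replicates 1 to 5 before differentiation. The lowest library of day 6 lay above the highest library before differentiation, and replicate 5 was the lowest of both conditions. The means were 23.6 ± 1.98 CPM on day 6 and 11.97 ± 2.05 CPM before differentiation (SD, n = 5 each), with a log2 fold change of 0.98, a standard error of 0.108 and an adjusted p = 1.64e-07 by edgeR.

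Bcl2l1, which encodes Bcl-xL and lies on the minus strand of chromosome 2 from 152780668 to 152831728, had 86.4, 94.2, 79.0, 78.7 and 80.0 CPM in the libraries of day 6, against 51.9, 54.1, 54.7, 56.1 and 53.4 CPM in those before differentiation. No library overlapped, and replicates 1 and 2 of day 6 were the highest of all 10. Means were 83.7 ± 6.68 CPM on day 6 and 54.1 ± 1.58 CPM before differentiation (SD, n = 5 each), a log2 fold change of 0.63 with a standard error of 0.0578 and an adjusted p = 1.28e-08 by edgeR.

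Mcl1 encodes a short-lived survival protein and lies on the plus strand of chromosome 3 from 95658721 to 95663176. Its level was 243, 236, 245, 255 and 236 CPM in the libraries of day 6, against 186, 188, 193, 195 and 195 CPM in those before differentiation. The libraries of each condition lay close together and the conditions did not overlap. Mcl1 averaged 243 ± 7.69 CPM on day 6 and 191 ± 4.35 CPM before differentiation (SD, n = 5 each), and its log2 fold change of 0.34 was the smallest in size among the 9 genes (standard error 0.0427, edgeR adjusted p = 7.38e-07).

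**Figure D1:**
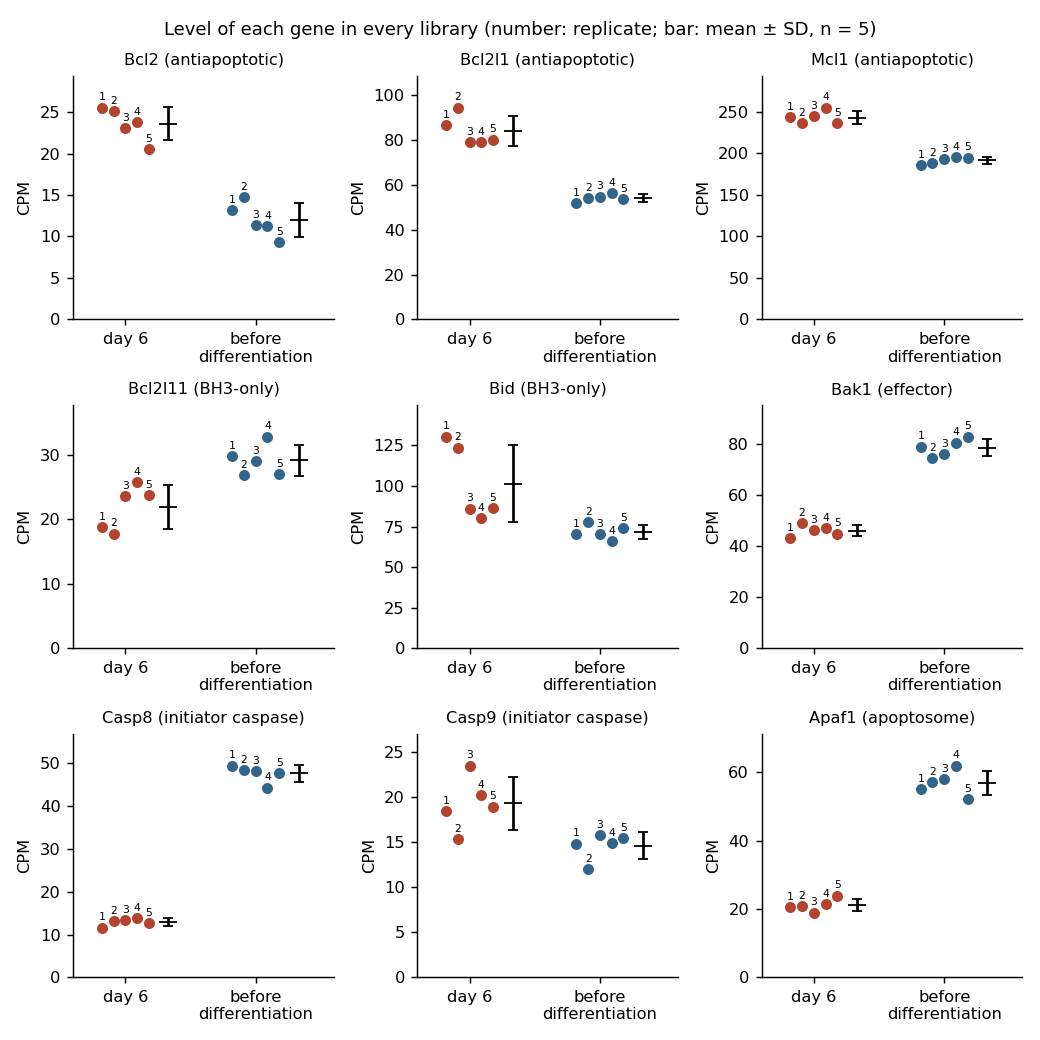
Level in CPM (vertical axis, from 0) of each of the 9 genes in the 5 libraries of day 6 (left, red) and the 5 libraries before differentiation (right, blue), with replicate numbers above the points and the mean ± SD beside them. The conditions separate for 8 genes, while for Casp9 the lowest library of day 6, at 15.4 CPM, lies under 2 libraries before differentiation.

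The proapoptotic members moved in both directions. Bak1 and Bcl2l11 were lower on day 6, by 1.70-fold and 1.33-fold, and Bid was 1.42-fold higher. Bak1, which forms pores in the outer mitochondrial membrane and lies on the minus strand of chromosome 17 from 27019810 to 27029009, had 43.3, 49.1, 46.2, 47.2 and 45.0 CPM in the libraries of day 6, against 79.0, 74.6, 76.2, 80.6 and 82.9 CPM in those before differentiation. The conditions were far apart, and the libraries of each lay close together. Bak1 averaged 46.2 ± 2.18 CPM on day 6 and 78.7 ± 3.35 CPM before differentiation (SD, n = 5 each), with a log2 fold change of -0.77, a standard error of 0.0535 and an edgeR adjusted p = 2.64e-10. Its exons share 614 bases, or 25.5% of its exonic length in GENCODE, with Ggnbp1 on the opposite strand, which had only 124 counts on day 6 and 60 before differentiation over all libraries.

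Bcl2l11 encodes Bim, a BH3-only protein that binds all antiapoptotic members, and lies on the plus strand of chromosome 2 from 128126038 to 128162547. It stood at 18.8, 17.8, 23.5, 25.8 and 23.7 CPM in the libraries of day 6, against 29.8, 26.9, 29.0, 32.8 and 27.0 CPM in those before differentiation. Replicates 1 and 2 of day 6 were the lowest of all, and the highest library of day 6 lay just under the lowest before differentiation. The means of 21.9 ± 3.44 CPM on day 6 and 29.1 ± 2.42 CPM before differentiation (SD, n = 5 each) gave a log2 fold change of -0.41, with a standard error of 0.0994 and an edgeR adjusted p = 0.00101. Its log2 fold change was -0.24 (adjusted p = 0.00960) without replicates 1 and 2 of day 6 and -0.63 (adjusted p = 1.64e-06) without replicates 3, 4 and 5. Both fits leave out the spread between these sets, so their adjusted p-values are not comparable with that of all 5 libraries.

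Bid, the BH3-only protein that caspase-8 cleaves, lies on the minus strand of chromosome 6 from 120891930 to 120916853. Its level was 130, 124, 86.1, 80.4 and 86.6 CPM in the libraries of day 6, against 70.2, 77.8, 70.1, 65.9 and 73.9 CPM in those before differentiation. All of day 6 lay above all libraries before differentiation, but replicates 1 and 2 stood well above the other 3 of day 6. Bid averaged 101 ± 23.6 CPM on day 6 and 71.6 ± 4.49 CPM before differentiation (SD, n = 5 each), a log2 fold change of 0.50 with a standard error of 0.140 and an edgeR adjusted p = 0.00687. Without replicates 1 and 2 of day 6 the log2 fold change was 0.25 (adjusted p = 0.000187), and without replicates 3, 4 and 5 it was 0.87 (adjusted p = 1.84e-13). Both fits leave out the spread between these sets, so their lower adjusted p-values are not stronger evidence of a rise.

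The last 628 exonic bases of Bid, from 120891930 to 120892557 on chromosome 6 and 17.7% of its exonic length in GENCODE, lie in an exon of Bcl2l13 on the opposite strand. Bcl2l13, a Bcl2-like protein of the mitochondrial membrane, averaged 125.9 ± 9.35 CPM on day 6 and 70.2 ± 1.45 CPM before differentiation (SD, n = 5 each), with a log2 fold change of 0.84, a standard error of 0.0537 and an edgeR adjusted p = 7.47e-11. The paper names a directional library kit, but whether the counting used the strand is not given in the sources used here. Reads from the shared stretch thus cannot be assigned to either gene with certainty. The part of Bcl2l13 in the Bid counts was not tested.

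Among the genes that start the caspase cascade, Casp8 and Apaf1 had the largest changes of all 9 members and Casp9 one of the smallest. Casp8, the initiator caspase of the death receptors, lies on the plus strand of chromosome 1 from 58795374 to 58847503. It had 11.6, 13.2, 13.3, 13.9 and 12.7 CPM in the libraries of day 6, against 49.4, 48.4, 48.0, 44.3 and 47.7 CPM in those before differentiation. Both conditions were tight and widely separated. Casp8 averaged 12.9 ± 0.855 CPM on day 6 and 47.6 ± 1.95 CPM before differentiation (SD, n = 5 each) and was 3.68-fold lower on day 6, with a log2 fold change of -1.88, a standard error of 0.0694 and an edgeR adjusted p = 2.99e-14.

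Apaf1, the scaffold that cytochrome c binds, lies on the minus strand of chromosome 10 from 90989311 to 91082770. It stood at 20.6, 20.8, 19.0, 21.4 and 24.0 CPM in the libraries of day 6, against 55.0, 57.1, 58.1, 61.9 and 52.2 CPM in those before differentiation. No library of day 6 came near the lowest library before differentiation. The means of 21.2 ± 1.81 CPM on day 6 and 56.9 ± 3.60 CPM before differentiation (SD, n = 5 each) gave a 2.69-fold lower level on day 6, a log2 fold change of -1.43 with a standard error of 0.0709 and an edgeR adjusted p = 2.11e-12.

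Casp9, the initiator caspase that the apoptosome activates, lies on the plus strand of chromosome 4 from 141793612 to 141815976. Its level was 18.5, 15.4, 23.5, 20.3 and 19.0 CPM in the libraries of day 6, against 14.9, 12.01, 15.8, 14.9 and 15.5 CPM in those before differentiation. Replicate 2 was the lowest library of both conditions, and that of day 6 lay under replicates 3 and 5 before differentiation, so the conditions overlapped. Casp9 averaged 19.3 ± 2.96 CPM on day 6 and 14.6 ± 1.51 CPM before differentiation (SD, n = 5 each), a 1.32-fold higher level on day 6 with a log2 fold change of 0.40, a standard error of 0.109 and an edgeR adjusted p = 0.00267. Without replicates 3, 4 and 5 of day 6, which leaves only replicates 1 and 2, its log2 fold change was 0.26. Casp9 then did not pass the test (adjusted p = 0.0522). Without replicates 1 and 2 of day 6 the log2 fold change was 0.53 (adjusted p = 1.73e-05). Both fits leave out the spread between these sets, so their adjusted p-values are not comparable with that of all 5 libraries.

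The levels of different genes were compared per length, with the deposited FPKM values (fragments scaled by gene length and library total). On day 6 the order by mean FPKM was Mcl1 (69.2), Bid (41.6), Bcl2l1 (32.3), Bak1 (19.2), Casp8 (4.97), Casp9 (4.93), Bcl2l11 (4.32), Bcl2 (3.26) and Apaf1 (3.19). The ranges of neighbours overlapped for Bid and Bcl2l1 and for each pair of neighbours from Casp8 down to Apaf1, so none of these was separated from the next in order. Before differentiation the order was Mcl1 (55.2), Bak1 (33.2), Bid (29.8), Bcl2l1 (21.2), Casp8 (18.5), Apaf1 (8.70), Bcl2l11 (5.81), Casp9 (3.77) and Bcl2 (1.67), and only the ranges of Bak1 and Bid overlapped. Mcl1 thus led in both conditions. On day 6 the range of Casp8 overlapped that of Casp9, and the range of Apaf1 overlapped that of Bcl2, while before differentiation neither pair overlapped.

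Ratios within a library give the balance of the members' RNA, as descriptions with no test. The summed FPKM of Bcl2, Bcl2l1 and Mcl1 was 104.8 ± 1.47 on day 6 and 78.1 ± 1.71 before differentiation, while that of Bcl2l11, Bid and Bak1 was 65.1 ± 8.46 on day 6 and 68.8 ± 2.28 before differentiation (SD, n = 5 each). The ratio of these sums was 1.41 to 1.84 on day 6 and 1.10 to 1.18 before differentiation. It did not overlap between the conditions, and Mcl1 gave most of the antiapoptotic sum, 66.1% on day 6 and 70.7% before differentiation. Within the proapoptotic sum Bid took 63.3% on day 6 and 43.3% before differentiation, and Bak1 took 29.9% on day 6 and 48.2% before differentiation. Bak1 had the larger mean share before differentiation and Bid the larger on day 6. The order did not hold in every library, as replicate 2 before differentiation had 46.8% Bid and 45.4% Bak1. The ranges of the proapoptotic sum overlapped between the conditions. Both sums cover the members only and depend on that choice. The effector Bax, left out, had 62.2 FPKM on day 6 and 125 FPKM before differentiation. The BH3-only gene Pmaip1, also left out, went the other way, at 29.8 FPKM on day 6 and 10.4 FPKM before differentiation. In the wider lists all 3 effectors were lower, while 5 of 9 tested BH3-only genes were higher and 2 lower.

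Single pairs moved further. The ratio of Bcl2l1 to Bak1, a survival protein and an effector it binds, was 1.69 ± 0.130 on day 6 and 0.640 ± 0.0340 before differentiation. Casp8 stood at 1.03 ± 0.165 times the level of Casp9 on day 6 and 4.96 ± 0.656 times before differentiation, and Apaf1 at 0.663 ± 0.125 times the level of Casp9 on day 6 and 2.33 ± 0.318 times before differentiation (SD, n = 5 each). Against Bcl2l11, which binds both, Mcl1 stood at 16.3 ± 2.41 times its level on day 6 and 9.55 ± 0.756 times before differentiation, and Bcl2 at 0.776 ± 0.179 times on day 6 and 0.290 ± 0.0593 times before differentiation. For each of these pairs the conditions did not overlap. Each pair sets a gene that was higher on day 6 against a gene that was lower, so its ratio restates these changes and is no separate result. Levels of RNA do not give levels of protein, and cleavage of the caspases or of Bid was not measured in these libraries.

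**Figure D2:**
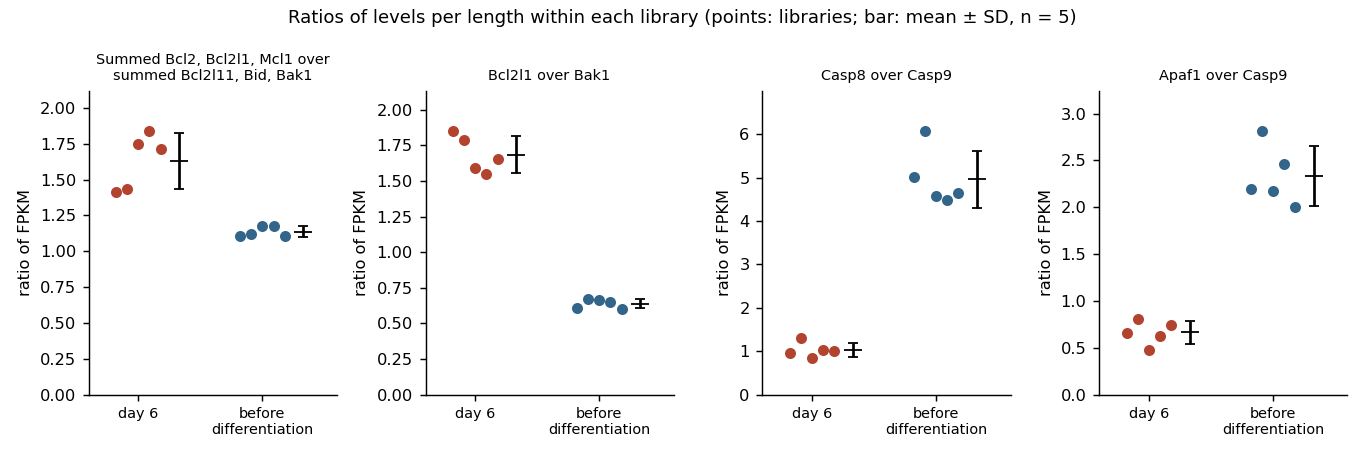
Ratio of FPKM within each library (vertical axis, from 0) for the summed antiapoptotic over the summed proapoptotic members, Bcl2l1 over Bak1, Casp8 over Casp9 and Apaf1 over Casp9, with day 6 on the left (red) and before differentiation on the right (blue), and the mean ± SD of 5 libraries beside the points. The ratios of Casp8 and Apaf1 to Casp9 averaged 1.03 and 0.663 on day 6, against 4.96 and 2.33 before differentiation, and the Bcl2l1 to Bak1 ratio was 1.69 on day 6 and 0.640 before differentiation.

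The split of the day 6 libraries ran through several members. In replicates 1 and 2 Bid was higher (130 and 124 CPM) and Bcl2l11 lower (18.8 and 17.8 CPM) than in replicates 3, 4 and 5, where Bid stood at 80.4 to 86.6 CPM and Bcl2l11 at 23.5 to 25.8 CPM. Bcl2l1 and Bcl2 were also highest in replicates 1 and 2, and Casp9 was lowest there. Casp8, Apaf1, Bak1 and Mcl1 did not separate replicates 1 and 2 from the other 3. The ratio of the antiapoptotic to the proapoptotic sum was 1.41 and 1.43 in replicates 1 and 2 and 1.71 to 1.84 in replicates 3, 4 and 5, all above the 1.18 that was the highest before differentiation. The share of all genes tested that separate these libraries in the same way was not counted. The first principal component of day 6 over all genes tested, with 49.5% of the variance, showed the same split. The separation thus does not set these members apart. Which property of the cultures or libraries this split reflects was not tested.

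**Figure D3:**
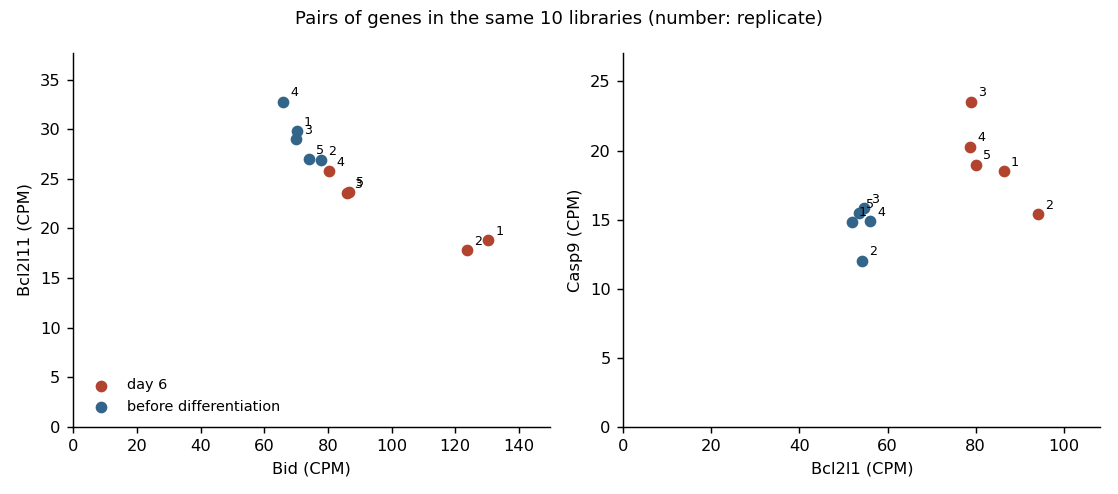
Bcl2l11 against Bid (left) and Casp9 against Bcl2l1 (right), both axes in CPM from 0, for the 5 libraries of day 6 (red) and the 5 libraries before differentiation (blue), numbered by replicate. Replicates 1 and 2 of day 6 lie apart, with Bid at 130 and 124 CPM beside 80.4 to 86.6 CPM in the other 3 libraries of day 6.

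The other genes of the pathway were read from lists of 68 apoptosis genes, the 9 members included. Of these, 57 were tested, 18 were higher on day 6, 28 were lower and 11 did not pass the test. The share that passed, 80.7%, was near the 79.8% of all genes tested, and the median log2 fold change was -0.16. Without the 9 members, 13 of 48 were higher and 24 lower, where 40.1% of all genes tested were higher and 39.7% lower. Most lists are short and most genes tested passed, so the counts per list are descriptions and do not set a list apart. The lists differed in direction, as the plot of fold changes by list shows, and those reported are described with the member of highest mean FPKM over all libraries and those with the largest rise and fall.

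**Figure D4:**
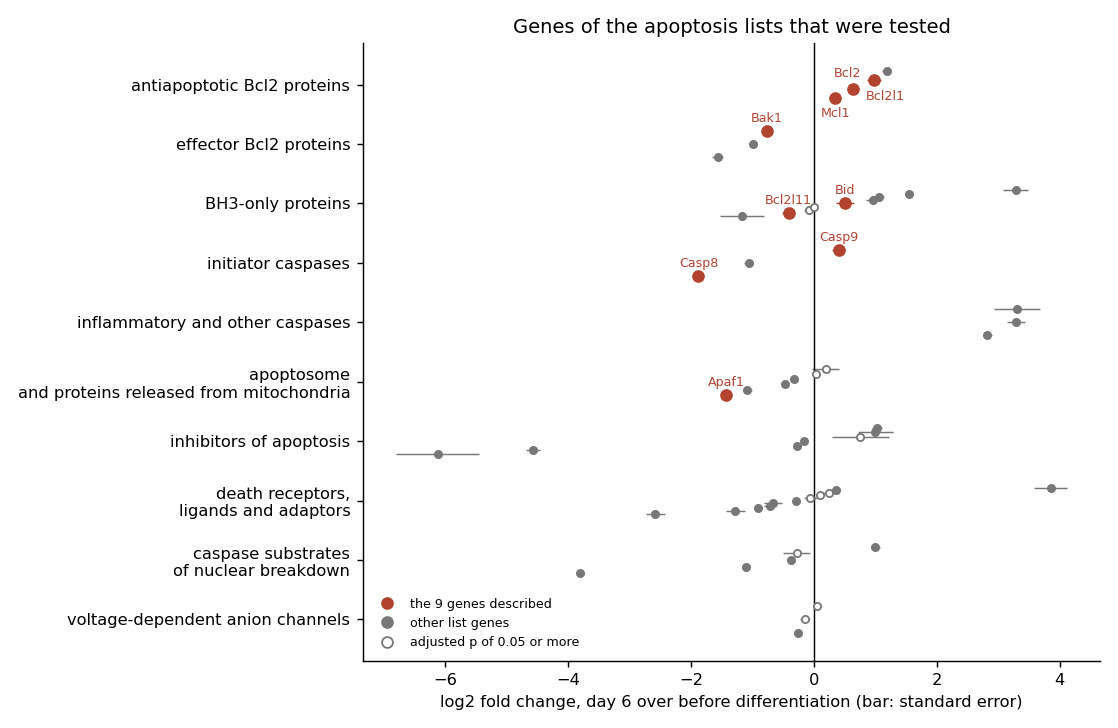
Log2 fold change, day 6 over before differentiation (horizontal axis), of the tested genes in 10 of the apoptosis lists (rows), with standard errors as bars, the 9 members in red and named, and open circles for genes that did not pass the test. All 4 tested antiapoptotic genes lie above 0, all 3 effectors lie under 0, and the 3 inflammatory and other caspases lie between 2.82 and 3.30.

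Among antiapoptotic Bcl2 proteins, 4 of 8 listed genes were tested and 4 were higher (median log2 fold change 0.81). Beside Bcl2, Bcl2l1 and Mcl1 this was Bcl2l2, which encodes Bcl-w, at 68.5 ± 4.51 CPM on day 6 and 30.1 ± 3.40 CPM before differentiation (log2 fold change 1.18, edgeR adjusted p = 8.22e-11). The A1 genes Bcl2a1a, Bcl2a1b and Bcl2a1d had 0 counts in all 10 libraries, and Bcl2l10 had 3 counts in all. From counting error alone, 0 counts allow a level of up to 0.0168 CPM. Only unique alignments were counted, so reads that align to several genes are missing and the level of the A1 genes may be higher. All 3 effectors were lower (median -0.99). Bax, the other main pore former, averaged 54.5 ± 2.34 CPM on day 6 and 108 ± 7.72 CPM before differentiation (log2 fold change -0.99, adjusted p = 1.82e-11), and Bok averaged 28.2 ± 1.89 CPM on day 6 and 83.6 ± 10.8 CPM before differentiation (log2 fold change -1.57, adjusted p = 8.82e-12). Bak1 therefore had the smallest fall of the 3.

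The BH3-only proteins were mixed, with 5 of 9 tested genes higher, 2 lower and 2 that did not pass the test (median log2 fold change 0.50). Bmf, a BH3-only protein tied to the cytoskeleton, had the largest rise, at 20.5 ± 2.74 CPM on day 6 and 2.11 ± 0.864 CPM before differentiation (log2 fold change 3.28, edgeR adjusted p = 3.46e-10). Pmaip1, Bnip3 and Bbc3, which encode Noxa, Bnip3 and Puma and are named after their values were seen, rose by log2 fold changes of 1.55, 1.06 and 0.96. Bik had only 63 counts on day 6 and 146 before differentiation (log2 fold change -1.18, adjusted p = 0.00605), and did not pass without replicates 3, 4 and 5 of day 6 (log2 fold change -0.47, adjusted p = 0.255). Bnip3l, the mitophagy receptor Nix and the gene of the list with the highest mean FPKM over the 10 libraries, stood at 121 ± 6.001 CPM on day 6 and 121 ± 3.04 CPM before differentiation (adjusted p = 0.960). Bcl2l11 and Bik were thus the 2 genes of this list that were lower.

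Of the 3 initiator caspases Casp8 and Casp2 were lower and Casp9 was higher (median log2 fold change -1.06). Casp2, named after its values were seen, had a log2 fold change of -1.06, against -1.88 for Casp8.

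The inflammatory and other caspases went the other way, with 3 of 3 tested genes higher (median log2 fold change 3.28). Casp12, a caspase of the endoplasmic reticulum, averaged 88.6 ± 6.86 CPM on day 6 and 12.5 ± 0.941 CPM before differentiation (log2 fold change 2.82, edgeR adjusted p = 2.31e-16). Casp1, which processes interleukin-1 beta, averaged 4.85 ± 0.892 CPM on day 6 and 0.489 ± 0.410 CPM before differentiation (log2 fold change 3.30, adjusted p = 6.06e-07), and Casp4, named after its values were seen, rose by a log2 fold change of 3.28. Casp1 and Casp4 are abundant in leukocytes, whose markers summed to 1.65 to 2.503 CPM on day 6 and 0.829 to 2.75 CPM before differentiation with Cd3e at 0 and the pan-leukocyte marker Ptprc at 2 counts on day 6 and 8 before differentiation. Itgam, too low to be tested, had 66 counts on day 6 and 0 before differentiation, the same direction as these caspases, while Cd68 had 104 counts on day 6 and 173 before differentiation, and the part of leukocyte RNA in the rise of Casp1 and Casp4 was not tested.

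The apoptosome and the proteins that mitochondria release held 0 higher and 4 lower genes of 6 (median log2 fold change -0.40). Cycs, cytochrome c and the partner of Apaf1, averaged 84.8 ± 9.66 CPM on day 6 and 179.6 ± 11.02 CPM before differentiation (log2 fold change -1.08, edgeR adjusted p = 1.00e-10). Apaf1 had the largest fall of the list. Of 7 tested inhibitors of apoptosis 2 were higher and 4 lower (median -0.16). Birc5, survivin, which also acts in mitosis, averaged 5.78 ± 1.41 CPM on day 6 and 138 ± 7.62 CPM before differentiation (log2 fold change -4.57, adjusted p = 2.78e-14), beside the fall of all 8 markers of dividing cells. Birc2, a ubiquitin ligase of death receptor complexes, averaged 35.2 ± 2.73 CPM on day 6 and 17.3 ± 1.55 CPM before differentiation (log2 fold change 1.03, adjusted p = 1.32e-09). Naip1 had 1 count on day 6 and 117 before differentiation, a ratio of 0.00895 with an exact 95% interval of 0.000225 to 0.0509 that covers counting error only (adjusted p = 1.40e-07), and its sequence is close to that of other Naip genes, so its counts are uncertain.

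In the list of death receptors, ligands and adaptors, 2 of 11 tested genes were higher and 6 lower (median log2 fold change -0.29). No ligand of the list had enough counts to be tested, so these are receptors and adaptors only. Fas, the death receptor whose complex activates caspase-8, averaged 7.97 ± 0.850 CPM on day 6 and 0.540 ± 0.287 CPM before differentiation (log2 fold change 3.85, edgeR adjusted p = 2.33e-10), opposite in direction to Casp8. Tnfrsf1a, the main receptor of tumour necrosis factor and the gene of the list with the highest mean FPKM, stood at 88.5 ± 7.75 CPM on day 6 and 82.4 ± 4.40 CPM before differentiation (adjusted p = 0.135). Pidd1, a scaffold for caspase-2, averaged 1.86 ± 0.533 CPM on day 6 and 11.1 ± 0.821 CPM before differentiation (log2 fold change -2.58, adjusted p = 5.88e-11). Fadd and Cflar, the adaptor and the inhibitor of caspase-8, had log2 fold changes of -0.67 and -0.29 and are named after their values were seen.

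Of the 5 genes listed for nuclear breakdown, 1 was higher and 3 were lower (median log2 fold change -0.37). Lmnb1, lamin B1, averaged 15.3 ± 1.27 CPM on day 6 and 214 ± 13.2 CPM before differentiation (log2 fold change -3.80, edgeR adjusted p = 1.49e-18), and Dffa, the inhibitor of the caspase-activated nuclease, averaged 32.1 ± 0.952 CPM on day 6 and 16.0 ± 1.64 CPM before differentiation (log2 fold change 1.00, adjusted p = 1.28e-09). Of the 3 voltage-dependent anion channels of the outer mitochondrial membrane, Vdac1 was lower, at 298 ± 24.6 CPM on day 6 and 357 ± 11.96 CPM before differentiation (log2 fold change -0.26, adjusted p = 0.000300), and it did not pass without replicates 3, 4 and 5 of day 6 (log2 fold change -0.10, adjusted p = 0.0831). The other two did not pass the test.

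For the member with the largest rise and the one with the largest fall, the genes of most similar pattern were taken by Pearson's r of log2 CPM over the 10 libraries. Closest to Bcl2 were Kif24, Prox1 and Ecm2 (r of 0.989, 0.985 and 0.985), and 500 tested genes had an r over 0.95. Closest to Casp8 were Rpsa, a ribosomal protein of the small subunit, Nop56, a protein of ribosome assembly, and Dbf4, the activator of a replication kinase (r of 0.999 for each), and 2685 tested genes had an r over 0.95. All 10 libraries share the split into conditions, which sets most of these values.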

How the data were processed

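Messenger RNA was sequenced from 10 C2C12 samples, 5 on day 6 and 5 before differentiation, and groups and replicate numbers follow the sample labels, with the day taken from the paper. Per the submitters' notes and the paper, the authors trimmed the paired-end reads with Trimmomatic (no version given), aligned with STAR 2.5 against mm10 and took gene counts of unique alignments from HTSeq 0.6.1; the deposited counts are unscaled. How HTSeq treated strand and overlapping genes, and which annotation release it used, are not given in the sources used here. The authors also deposited FPKM values, which equal the count per kilobase of gene length and per 1000000 counts of the library, as checked on the table. The counts were tested in R 4.3.3 with edgeR 4.0.16 (filterByExpr by group, TMM factors, robust quasi-likelihood fit on condition alone), with Benjamini-Hochberg adjustment over 13085 genes and a threshold of 0.05. Each standard error is the absolute log2 fold change divided by the root of the F value. Of the gene names, 27 read as dates and were restored by identifier. Promoter windows come from RefSeq (GRCm38.p6), and overlaps from GENCODE M21 on the same build.

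The members and the lists were chosen with earlier results of these data known. The text names all 9 members, and in each list the gene of highest mean FPKM over the 10 libraries and those with the largest rise and fall that passed the test, with the 3 genes most like Bcl2 and Casp8. Other genes are said to be named after their values were seen, and a few list members are not reported here. Alternatives were DESeq2 1.42.0, 3 other scalings, 2 other filters, thinned counts, the replicate number as a block, each library left out, a limit of 1 log2, and 4 sets of libraries or genes left out.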

Additional observations from a re-analysis of the deposited data

Results flagged for a closer look

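Among the 5 libraries before differentiation, replicate 2 stood apart from the others in Casp9, at 12.01 CPM against 14.9 to 15.8 CPM in the other 4. Its gap to the nearest library was 0.745 of the range of the group, past Dixon's 95% critical value for 5 samples. This was 1 of 18 groups of values checked over the 9 genes, and chance flags about 1 in 20 such groups. On day 6 the lowest library in Casp9 was also numbered 2, at 15.4 CPM, although the labels do not tie equal numbers to a shared culture.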

How the results depend on the processing

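Each of the 9 genes was recomputed under 22 alternatives, and 197 of 198 log2 fold changes kept their direction and their side of the threshold. The exception was Casp9, at 0.26 (adjusted p = 0.0522, edgeR) without replicates 3, 4 and 5 of day 6. Ranges were 0.90 to 1.12 for Bcl2, 0.57 to 0.78 for Bcl2l1, 0.33 to 0.39 for Mcl1, -0.82 to -0.72 for Bak1, -1.91 to -1.82 for Casp8 and -1.46 to -1.38 for Apaf1. Bid and Bcl2l11 depended most on the split of day 6, with the values given beside them. With a limit of 1 log2 as well, 2370 of all genes tested were higher and 1925 lower, and 10 and 13 genes of the apoptosis lists, because the limit removes smaller changes. The near-zero log2 fold change of Bnip3l turned to -0.017 with library totals alone, -0.024 without replicates 1 and 2 of day 6 and -0.023 without replicates 2 and 3 before differentiation, and lay at -0.023 to 0.048 with each replicate left out; the cause was not tested. Same-numbered libraries did not deviate together (correlations -0.045 to 0.010, 0 of 5 over 0.1), so the numbers were not taken as pairs. The replicate block gave 5165 higher and 5138 lower genes and changed no call of a member. Tnfrsf1a passed the test at 0.14 to 0.21 under 4 alternatives, a stricter filter and day 6 without replicate 1, replicate 2 or both.
Depth limits Bik and Naip1, whose counts are few, and the A1 genes are limited by depth and by the counting of unique alignments alone. No other scaling moved the median of all genes tested past 0.09 (log2). RNA levels of bulk cultures do not separate unfused cells from myotubes, and the share of each at day 6 was not measured in these libraries.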
